A study of Homo sapiens with 18 samples.

Results

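The regions described here were the GC-rich parts of the human genome that lie away from telomeres. Chromosomes 1 to 22 of hg19 were divided into windows of 100 kb, and a window was kept if 90% or more of its sequence was known, if 50% or more of its known bases were G or C, and if it lay 2 Mb or more from both chromosome ends. This rule used the sequence alone and no peak, and it gave 1457 of 26664 windows with enough known sequence. Of the other windows, 24475 were as far from the ends but had under 50% GC, and 325 were GC-rich but nearer to an end. The cells were HL-60/S4, an established human myeloid leukemia line kept undifferentiated and untreated, and the antibodies were rabbit polyclonals against histone H1.2 or against histone H1.5. In xChIP-seq the cells were fixed with formaldehyde, sonicated, and only then exposed to antibody, so that the antibody met sheared chromatin. In xxChIP-seq the antibody was bound inside fixed and permeabilized cells, fixed in place by another formaldehyde step, and the chromatin was sheared afterwards. For each protocol with each antibody, the authors merged the peaks of 3 replicates into 1 list, which gives 4 lists, and 6 Input samples were not analysed here. No spread between replicates can therefore be given, every comparison below describes 4 merged lists without a test, and the depth behind them is unknown.

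Histone H1 is the linker histone. It binds the nucleosome near the point where DNA enters and leaves and helps chromatin fibres to fold, and H1.2 and H1.5 are variants found in most dividing cells. GC-rich DNA holds most of the gene-dense, early-replicating part of the genome, with many CpG islands and many Alu elements, the short repeats that make up the commonest family of human retrotransposons. The windows kept here held the transcription start sites (TSS) of 3509 of the 19229 protein-coding genes of chromosomes 1 to 22 (18.2%). They were 5.62% of the windows away from the ends, a base that leaves out the chromosome ends, whereas the genes were counted over whole chromosomes. The number of TSS per window had a mean of 2.41 and a maximum of 15, and the GC content had a median of 52.1% and a maximum of 63.5%. Chromosome 19 held 228 of the windows, chromosome 17 held 151, chromosome 1 held 144 and chromosome 22 held 106. Most of the windows had a neighbour of the same kind, since 1106 of them (75.9%) lay in runs of at least 2 adjacent windows, and they are not independent of each other.

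The windows that H1.2 peaks filled in xChIP and the windows that they left bare differed in the number of copies of a common word of DNA. The commonest word of 14 bases with all 4 letters in these windows, counted on both strands, was cctgtaatcccagc, which is part of the Alu consensus sequence. It occurred 61421 times, at a mean of 42.2 copies per window against 21.3 in the windows under 50% GC, and at least 1 copy was present in 99.8% of the windows of either kind. A stretch of GC-rich sequence from a window that xChIP H1.2 peaks covered whole is shown as an example. It is the middle 200 bases of the peak within the window, read from the plus strand of the hg19 reference, and it holds no copy of the word, so no letter is in capitals.
Upstream of GTF2IRD1, chr7:73849901-73850100, in an xChIP H1.2 peak: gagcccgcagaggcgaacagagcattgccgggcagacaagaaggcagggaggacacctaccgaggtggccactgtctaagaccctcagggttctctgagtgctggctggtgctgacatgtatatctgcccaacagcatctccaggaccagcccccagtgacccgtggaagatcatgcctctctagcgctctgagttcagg
This sequence lay outside protein-coding genes, 18119 bp from the TSS of GTF2IRD1, and had 59.5% GC and 6 CpG. The window around it held 94 copies of the word.

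Coverage is given throughout as the share of a window's known bases that lay inside peaks of a list, which measures the extent of enriched regions and not their height. H1.2 peaks of xChIP spread over the GC-rich windows, whereas the peaks of xxChIP left them nearly empty. The xChIP H1.2 list covered a mean of 53.1% of these windows (lowest 2.80%, median 50.6%, highest 100%), against 25.0% of the windows under 50% GC. For xChIP H1.5 the mean was 17.7% (lowest 0%, median 14.1%, highest 96.4%), close to the 16.5% of the other windows. The xxChIP H1.2 list covered 7.20% (lowest 0%, median 5.61%, highest 43.9%), against 21.4% elsewhere, and the xxChIP H1.5 list covered 7.82% (lowest 0%, median 5.43%, highest 61.2%), against 18.1%. H1.2 thus stood out in xChIP only, and in xxChIP the values for H1.2 and H1.5 were alike. The bases outside all peaks were 37.5% of the GC-rich sequence and 46.6% of the other windows.

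Peaks of H1.5 in xChIP lay mostly inside those of H1.2. In GC-rich windows 76.7% of the bases of xChIP H1.5 peaks were also in xChIP H1.2 peaks, which covered 53.1% of all bases, and 25.5% of the bases of xChIP H1.2 peaks were in xChIP H1.5 peaks, which covered 17.7%. In windows under 50% GC these shares were 53.3 and 35.2%. In xxChIP 30.4% of the H1.2 peak bases lay in H1.5 peaks and 28.0% of the H1.5 peak bases in H1.2 peaks, against 44.1 and 52.2% in windows under 50% GC. Among the 1457 windows the coverage by both antibodies of a protocol ran together, with a Spearman correlation of 0.56 for xChIP and 0.61 for xxChIP. Coverage by xChIP H1.2 ran against that of the xxChIP lists (-0.34 for H1.2 and -0.44 for H1.5). For xChIP H1.5 these correlations were weaker, at -0.08 and -0.17. These correlations describe windows that share chromosomes, libraries and peaks, and carry no test.

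**Figure D1:**
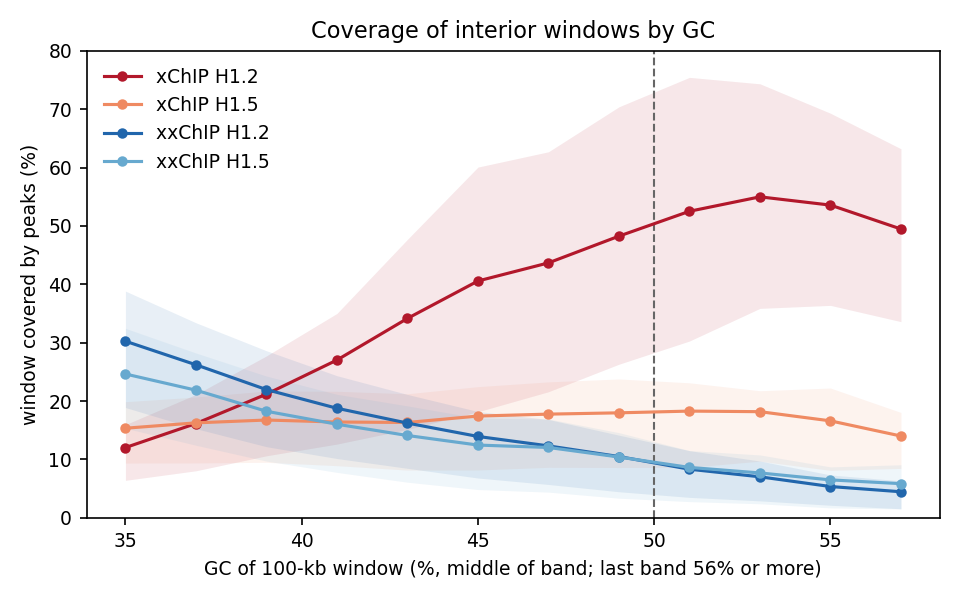
Mean coverage (points) and the range from the lower to the upper quartile (bands) of windows away from chromosome ends, in bands of 2 points of GC, for each list; the dashed line marks 50% GC. Coverage by xChIP H1.2 climbs from 12.0% to 54.98% and then levels off, xChIP H1.5 stays between 14.01% and 18.3%, and both xxChIP lists fall to 4.47% and 5.85%.

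Across all windows away from the ends, coverage by xChIP H1.2 climbed with GC, from a mean of 12.0% at 34 to 36% GC to 54.98% at 52 to 54%, and was 49.46% at 56% or more. The plot of coverage by GC shows that this climb stopped inside the GC-rich range. The copies of the Alu word had means of 8.91, 45.1 and 24.7 per window in the same 3 bands, so that in the last of them the copies were far fewer while coverage was little lower. Windows of 40 to 42% GC had a similar number of copies (24.4) and 27.0% coverage. The xxChIP lists had no such turn: xxChIP H1.2 fell from 30.3% to 4.47% and xxChIP H1.5 from 24.6% to 5.85% over the whole range. The limit of 50% fell in the middle of these gradients, and windows on its sides were alike. The 234 windows at 49.5 to 50% GC had means of 52.1, 17.3, 9.38 and 9.22% in xChIP (H1.2, then H1.5) and xxChIP (H1.2, then H1.5), and the 221 windows at 50 to 50.5% had 53.3, 18.6, 8.97 and 8.83%. The windows nearest to the limit lay inside TRAPPC9, which encodes a vesicle tethering subunit, and inside TTC7B, at 50.0% GC, and xChIP H1.2 covered 29.5% of the first and 44.3% of the second.

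Counts of windows gave the same picture. The xChIP H1.2 peaks covered 50% or more of 741 GC-rich windows (50.9%, 95% Wilson interval 48.3 to 53.4%), and of all windows away from the ends 14.3% were covered so far. For xChIP H1.5 the count was 54 (3.71%, background 1.69%). Coverage was under 10% in 1107 windows for xxChIP H1.2 (76.0%, background 25.6%) and in 1059 for xxChIP H1.5 (72.7%, background 32.3%). No GC-rich window was covered to 50% or more by xxChIP H1.2 (background 4.68%, Wilson upper bound 0.263%), and 2 were by xxChIP H1.5 (background 1.97%). The combination of xChIP H1.2 at 50% or more with both xxChIP lists under 10% was met by 594 windows (40.8%, interval 38.3 to 43.3%), and by 8.24% of all windows away from the ends. The share depended on the limits and on wide peaks: it was 62.9% with limits of 40% and 20%, and 2.68% when only peaks under 20 kb were counted. Mean xxChIP coverage exceeded mean xChIP coverage in 93 windows (6.38%), against 49.8% of the background. These intervals cover counting error over windows only.

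At equal GC, coverage differed with gene number. Windows with 6 or more protein-coding TSS are called gene-dense (160 windows), those with 0 or 1 gene-poor (654), and those with 2 to 5 middle (643). Means were compared within strata of 1 point of GC, weighted by the smaller class. xChIP H1.2 covered 64.2% of gene-dense windows and 44.2% of gene-poor windows of equal GC, a difference of 20.0 percentage points. For xChIP H1.5 the means were 18.8 and 15.3%, 3.50 points apart. The order was opposite in xxChIP, where H1.2 covered 3.74% of gene-dense and 8.62% of gene-poor windows (-4.88 points) and H1.5 covered 3.63 and 10.4% (-6.78 points). The spread within a class was wide: the middle 50% of gene-dense windows lay between 48.5 and 82.99% for xChIP H1.2, and that of gene-poor windows between 28.2 and 57.2%. The xChIP differences depended on the processing. For H1.2 the value was 7.79 points in windows of 50 kb, where the same TSS limits gave classes of another gene density. It was -5.13 points with only peaks under 20 kb, and -0.19 points when windows were also matched for copies of the Alu word. For H1.5 it was -3.03 points with that match and -3.86 points with a match for words of many copies.

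**Figure D2:**
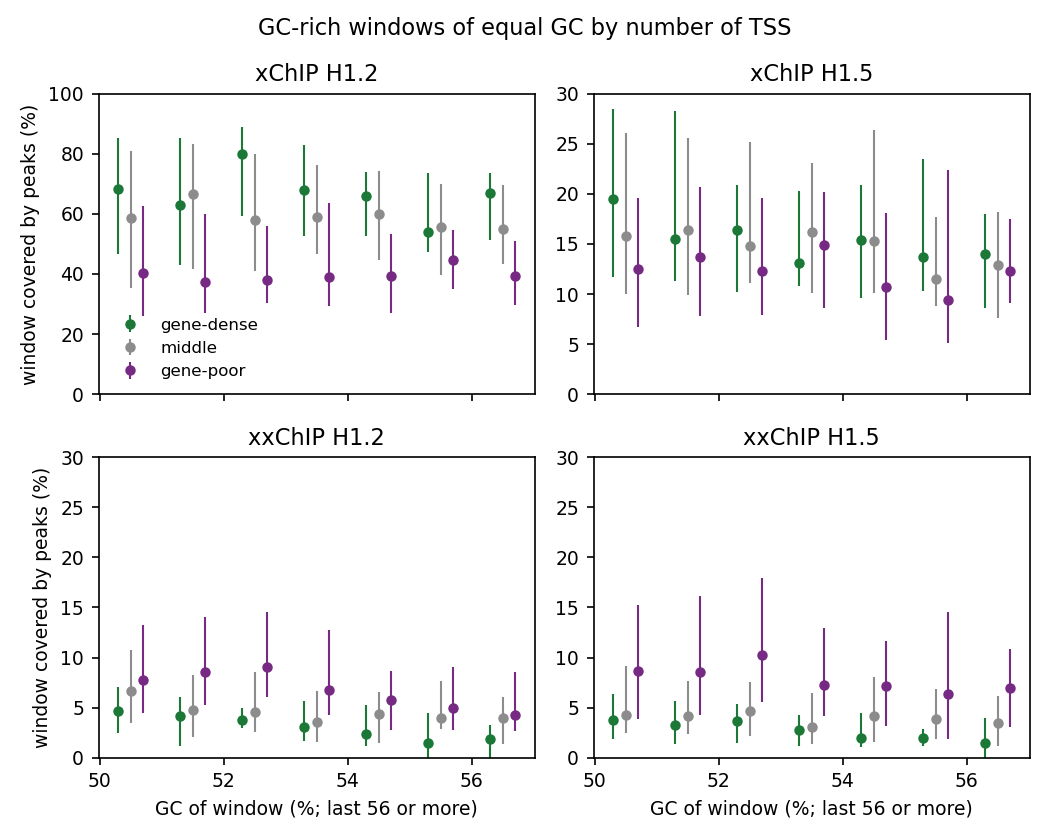
Median coverage (points) and the range from lower to upper quartile (bars) of GC-rich windows in strata of 1 point of GC (horizontal axis), by number of TSS, in 1 panel per list; the xChIP H1.2 panel has a longer vertical axis. Gene-dense medians lie above gene-poor medians in every stratum for xChIP H1.2, as at 50 to 51% GC with 68.3 against 40.3%, and below them in every stratum for both xxChIP lists.

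The high-and-low combination followed gene number as well. It was met by 109 of 160 gene-dense windows (68.1%, Wilson interval 60.6 to 74.8%), 338 of 643 middle windows (52.6%, 48.7 to 56.4%) and 147 of 654 gene-poor windows (22.5%, 19.4 to 25.8%). Of the 93 windows with more xxChIP than xChIP coverage, 77 were gene-poor, 16 were middle and 0 were gene-dense. The plot of single windows shows the gene-dense windows along the bottom of the xxChIP axis. Among windows with no TSS, xChIP H1.2 covered 39.5% of those at least 50% inside a gene and 37.7% of those under 10% inside a gene, at equal GC. For xxChIP H1.5 these means were 11.4 and 14.2%.

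**Figure D3:**
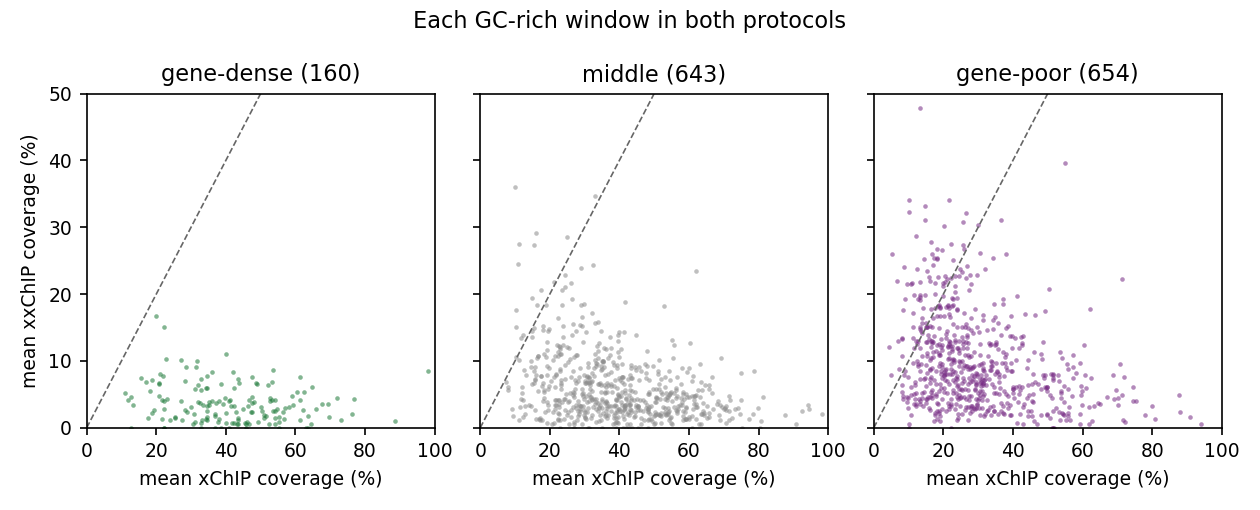
Mean coverage by both xChIP lists (horizontal) and by both xxChIP lists (vertical) of each GC-rich window, in a panel each for gene-dense, middle and gene-poor windows; the dashed line marks equal coverage. No gene-dense window lies above the line, and 16 middle and 77 gene-poor windows do.

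Chromosomes gave a check of how general these differences were. On all 20 chromosomes with 10 or more GC-rich windows, xChIP H1.2 covered more of the GC-rich windows than of the windows under 50% GC (17.5 to 45.7 points more), and both xxChIP lists covered less. For xChIP H1.5 the GC-rich windows were higher on 15 of the 20. The gene-dense minus gene-poor difference at equal GC could be formed with at least 5 matched windows on 10 chromosomes. It was positive on 10 of 10 for xChIP H1.2 (4.53 to 35.3 points), on 9 of 10 for xChIP H1.5, and negative on 10 of 10 for both xxChIP lists. Chromosomes with fewer matched windows are not counted here, and some of them had the other sign. On chromosome 14 (3 matched windows) the xChIP H1.2 difference was -3.68 points. On chromosome 8 (2 matched windows) the xxChIP H1.5 difference was 2.99 points. The xChIP H1.5 difference was negative on chromosomes 8, 10 and 14. The smallest counted xChIP H1.2 difference was that of chromosome 19. This chromosome had the most GC-rich windows and a mean of 15.1% of sampled words present in many copies.

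**Figure D4:**
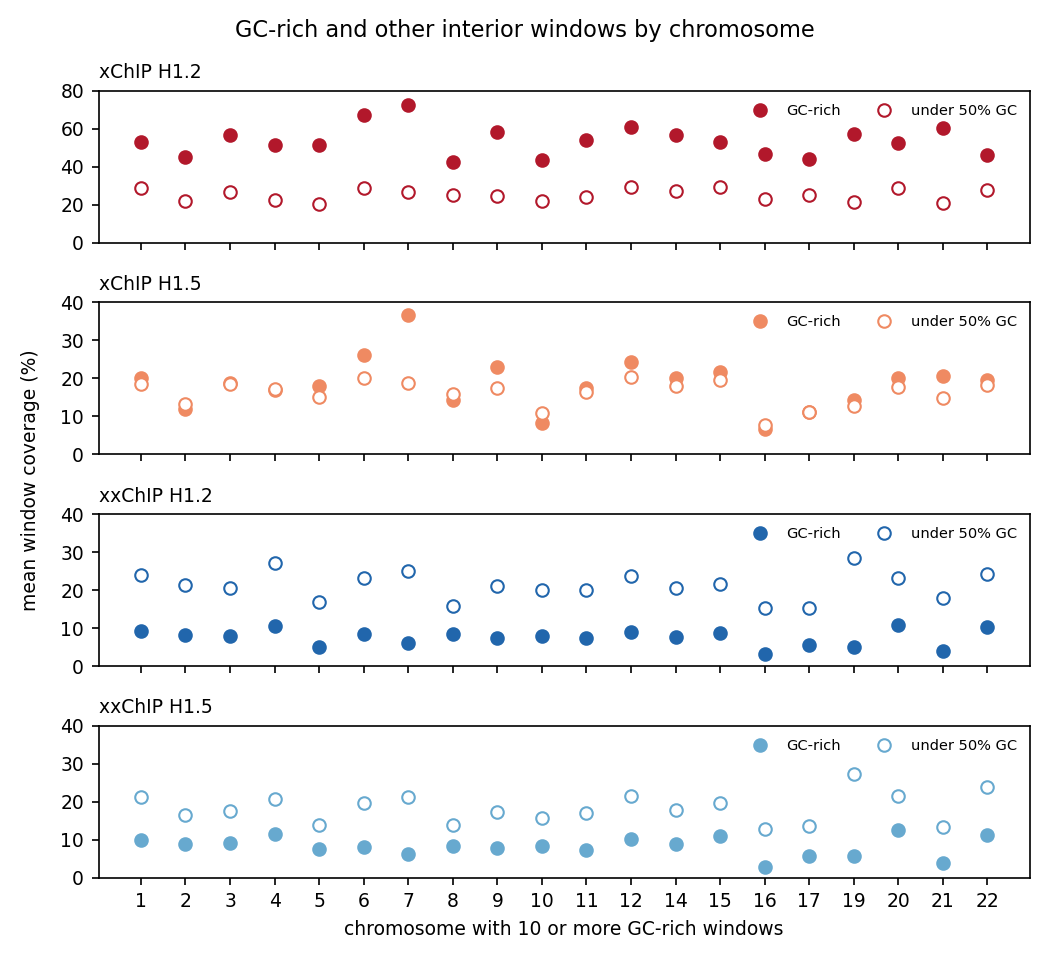
Mean coverage of GC-rich windows (filled) and of windows under 50% GC (open) on each chromosome with 10 or more GC-rich windows, in 1 panel per list; the xChIP H1.2 panel has a longer vertical axis. GC-rich windows are higher on every chromosome for xChIP H1.2 and lower on every one for both xxChIP lists, and chromosome 7 is highest in both xChIP panels at 72.2 and 36.6%.

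Chromosome 7 had the highest GC-rich means in xChIP, 72.2% for H1.2 and 36.6% for H1.5. Chromosome 16 had the lowest for xChIP H1.5 (6.74%), xxChIP H1.2 (3.30%) and xxChIP H1.5 (2.98%). Among these chromosomes the lowest mean for xChIP H1.2 was that of chromosome 8 (42.5%), and chromosome 20 had the highest xxChIP means (10.9 and 12.6%). The longest runs of adjacent GC-rich windows were all on chromosome 19, at chr19:2000001-6000000 (40 windows, 116 TSS), chr19:16900001-19500000 (26 windows, 90 TSS) and chr19:9900001-11700000 (18 windows, 67 TSS). In them the high-and-low combination was met by 27 of 40, 19 of 26 and 15 of 18 windows. It was met by 58.3% of all GC-rich windows of chromosome 19 and by 40.8% of all GC-rich windows. Their mean xChIP H1.2 coverage was 65.0, 63.8 and 68.4%, while the xxChIP means lay between 3.13 and 4.79%.

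Repeats moved with gene number, and much of the xChIP difference went with them. The gene-dense windows held 57.9 copies of the Alu word, the gene-poor windows of equal GC 27.9. Across the 1457 windows the Spearman correlation of word copies was 0.65 (H1.2) and 0.37 (H1.5) with xChIP coverage, and -0.44 (H1.2) and -0.54 (H1.5) with xxChIP coverage. For the number of TSS these were 0.36, 0.16, -0.34 and -0.40, and for GC within this range 0.03, -0.04, -0.23 and -0.13. Within these windows, coverage by H1.2 in xChIP therefore ran more closely with the Alu word than with the number of TSS. The rule for the windows held GC to a narrow range, so its correlation cannot be ranked against that of the word. In strata of equal GC, the 25% of windows with the most copies (mean 78.8) had 74.0% of their bases in xChIP H1.2 peaks and the 25% with the fewest (mean 11.7) had 32.8%. The order was the same for xChIP H1.5, at 24.3 and 11.6%. It was opposite in xxChIP, at 3.87 and 11.2% for H1.2, and 3.33 and 14.4% for H1.5.

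When windows were matched both for GC and for word copies (strata of 10 copies), 129 gene-dense and 464 gene-poor windows could be compared. xChIP H1.2 then covered 63.0% of the gene-dense and 63.2% of the gene-poor windows, a difference of -0.19 points. The 20.0 points of the match for GC alone came from 160 gene-dense and 654 gene-poor windows. The windows compared and their weights thus changed as well. The xChIP H1.5 difference turned from 3.50 to -3.03 points. In xxChIP the gene-dense windows remained lower, by a smaller margin: the difference was -1.98 points for H1.2 and -2.17 points for H1.5. With gene number held low in turn, among gene-poor windows alone, the 25% richest in the word had 65.9% in xChIP H1.2 peaks and the 25% poorest had 29.9%, at equal GC. Among gene-dense windows these means were 71.6 and 50.2% (36 windows each). The share of sampled 32-base words with 10 or more copies in the reference gave a like result, with a gene-dense minus gene-poor difference of 4.27 points for xChIP H1.2 in strata of 5 points of that share. Matching on CpG density in place of GC left 16.9 points.

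**Figure D5:**
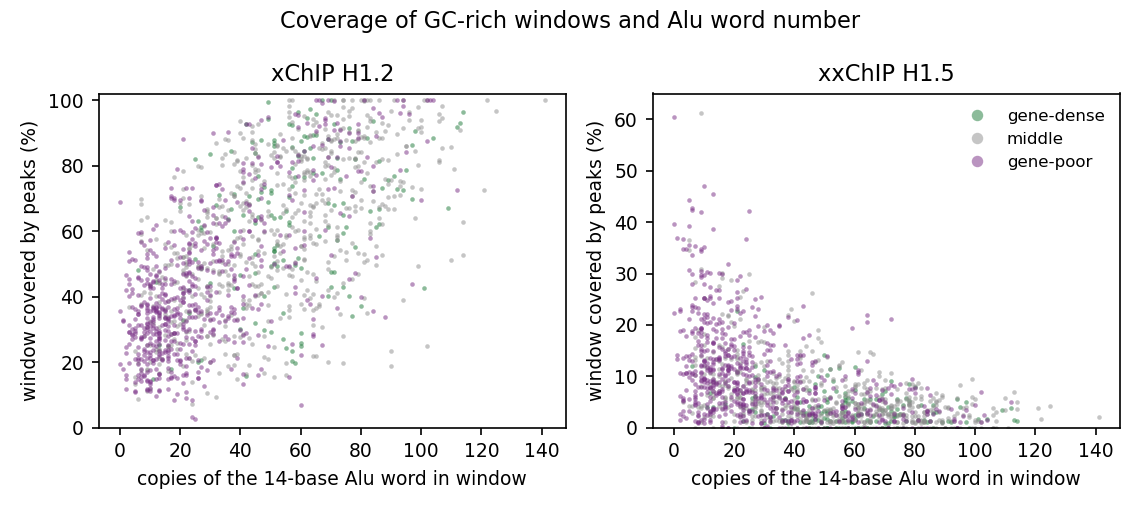
Copies of the 14-base Alu word in each GC-rich window (horizontal) against the coverage of the window by xChIP H1.2 (left) and xxChIP H1.5 (right) peaks, coloured by number of TSS. Coverage by xChIP H1.2 climbs and coverage by xxChIP H1.5 falls with the number of copies, gene-poor windows with many copies lie among gene-dense windows, and the Spearman correlations are 0.65 and -0.54.

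The copies themselves lay in xChIP H1.2 peaks more often than the sequence around them. In the GC-rich windows 78.9% of the copies were inside xChIP H1.2 peaks, against 53.1% of all bases. With H1.5 in xChIP the shares were 29.9 against 17.7%. In xxChIP they were 10.2 against 7.20% (H1.2) and 8.97 against 7.82% (H1.5). All 4 lists thus held more of the copies than of the bases. In gene-poor windows the xChIP H1.2 shares were 72.8 against 44.5%, and in gene-dense windows 83.4 against 64.2%. In gene-dense windows the xxChIP lists held 7.39% of copies against 3.74% of bases (H1.2) and 5.99 against 3.63% (H1.5), a larger ratio than that of xChIP H1.2. The authors kept only reads that could be placed uniquely, and a median of 87.0% of the sampled 32-base words of a GC-rich window occurred once in the reference. In the 1108 windows with 80% or more such words, the gene-dense minus gene-poor difference of xChIP H1.2 was 20.3 points. The part of read placement in repeats in these results was not tested.

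Wide peaks supplied a large part of the xChIP H1.2 coverage, most of it in gene-dense windows and less in gene-poor windows. Of the 9008 xChIP H1.2 peaks centred in GC-rich windows, 865 (9.60%) were 20 kb or longer, against 3.68% of those in the windows under 50% GC, and the longest had 475723 bp. Such peaks held 53.9% of what xChIP H1.2 covered in GC-rich windows, 66.0% in gene-dense and 40.6% in gene-poor windows. With these peaks left out, xChIP H1.2 covered 24.5% of the windows and the gene-dense minus gene-poor difference turned to -5.13 points. In the xxChIP lists only 8 peaks of H1.2 and 12 of H1.5 reached 20 kb here. Median peak length was 3305.5 bp (H1.2) and 2079 bp (H1.5) in xChIP, and 1604 bp (H1.2) and 1626 bp (H1.5) in xxChIP.

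Inside the GC-rich windows, xxChIP peaks covered promoters least among the parts of genes and the sequence between them. Within 1 kb of a TSS xxChIP H1.2 covered 1.44% of bases and xxChIP H1.5 2.09%, against 9.24 and 9.55% between genes. Exons outside promoters had 2.96 and 3.46%, and introns 7.21 and 8.04%. For xChIP H1.2 the values were 55.7% at promoters, 44.1% in exons, 52.3% in introns and 56.9% between genes, so that exons were lowest. In gene-dense windows xChIP H1.2 covered 73.0% of the sequence between genes and 58.5% of promoters. CpG islands, found here as stretches of at least 500 bp with 55% GC and an observed to expected CpG ratio of 0.65, had 51.4% (H1.2) and 14.6% (H1.5) of their bases in xChIP peaks, and 1.61% (H1.2) and 2.64% (H1.5) in xxChIP peaks.

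The fine scale also differed from the scale of windows. In tiles of 1 kb inside GC-rich windows, xChIP H1.2 coverage was highest in tiles of 45 to 50% GC (62.7%) and lower in tiles of 65% or more (43.1%), and xChIP H1.5 went from 24.4 to 10.5%. In tiles under 40% GC the xxChIP lists covered 25.2% (H1.2) and 20.7% (H1.5), close to the 25.4 and 20.9% of tiles of that GC in the other windows. At 65% or more these were 0.53 and 1.09%. In tiles of higher GC the GC-rich windows had less than the other windows, with 15.2 against 20.0% (H1.2) and 12.8 against 17.0% (H1.5) at 40 to 45% GC, and 9.25 against 15.0% and 9.02 against 13.9% at 45 to 50%. In gene-dense windows the tiles under 40% GC had less, 11.8 and 9.39%, against 29.3 and 25.2% in gene-poor windows.

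The windows at the ends of these distributions can be named. In each GC stratum the 25% of windows with the highest and the 25% with the lowest mean coverage were taken for each protocol. In 165 windows xChIP was high and xxChIP low, with means of 87.0% for xChIP H1.2 and 1.51% for xxChIP H1.5. These windows had 3.68 TSS per window, 3.03% of them had none, and they held 71.8 copies of the Alu word. Chromosome 7, with 79 of all 1457 windows (5.42%), held 33 of the 165. In 96 of the 165 under 80% of the sampled words were unique, against 349 of all 1457 windows, and the part of this in their coverage was not tested. In 158 windows xChIP was low and xxChIP high, with means of 24.4 and 19.5% for the same lists. These had 0.87 TSS per window, 51.9% of them had none, and they held 15.5 copies of the word. In 12 of the 158 under 80% of the words were unique. Both protocols were high in 19 windows and low in 39, and the latter had 3.13 TSS per window and 43.1 copies of the word. The both-low windows were gene-rich like the first set, and 13 of the 39 were on chromosome 16.

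Among gene-poor windows of 50 to 52% GC, the largest excess of xChIP was at chr7:73700001-73800000, inside CLIP2, which encodes a protein that links organelles to microtubules. Peaks covered 100% (H1.2) and 87.9% (H1.5) of it in xChIP, and 0% (H1.2) and 1.11% (H1.5) in xxChIP, and it held 102 copies of the Alu word. The next window, with the TSS of GTF2IRD1, a transcription factor of the TFII-I family, had 100, 81.6, 3.16 and 0% in the same order and 94 copies. At the other end stood chr3:126800001-126900000, with no protein-coding gene and 6 copies, where the values were 14.9, 5.28, 25.8 and 42.3%. The 3 windows had nearly equal GC (51.9, 52.01 and 50.0%).

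Gene-dense windows of 50 to 52% GC spanned a similar range in xChIP. The window chr6:31700001-31800000 holds 10 TSS, among them MSH5, a meiotic mismatch repair homologue, LSM2, a subunit of the U6 snRNA ring, and the heat shock genes HSPA1A and HSPA1B. It had 91.3% (H1.2) and 61.4% (H1.5) in xChIP peaks, and 4.13% (H1.2) and 0% (H1.5) in xxChIP peaks, and this order is kept for the windows that follow. The window chr22:39400001-39500000 holds the APOBEC3C to APOBEC3H genes, cytidine deaminases that restrict retroviruses and retroelements. Its values were 24.4, 15.4, 21.9 and 11.6%, the narrowest gap of any gene-dense window in this band, although it held 55 copies of the Alu word against 76 in the former. Of its sampled words 63.5% occurred once in the reference, against 78.5% in the former, and the part of this was not tested. Its 21.9% was also the highest xxChIP H1.2 value of a gene-dense window. The adjacent window chr6:31600001-31700000, with the most TSS of all (15, among them BAG6 and CSNK2B), had 87.3, 31.5, 4.13 and 2.80%.

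At 52 to 54% GC the gene-dense window with the largest gap was chr7:102200001-102300000, with POLR2J3 and RASA4, a GTPase-activating protein for Ras. Its values were 100, 96.0, 9.85 and 7.24%. Only 3.50% of its sampled words occurred once in the reference. These genes belong to a duplicated family, and its values are uncertain because reads there could belong to other copies. The smallest gap was at chr16:2800001-2900000, with SRRM2, a splicing factor of nuclear speckles, and the serine protease genes PRSS33, PRSS41 and PRSS21. It had 20.6, 4.96, 5.93 and 3.16%, low in all 4 lists. A similar case at 54 to 56% GC was chr19:56100001-56200000, with the splicing factor gene U2AF2 and 5 ZNF genes among 9 TSS, at 15.7, 10.7, 5.65 and 1.22%. Gene-dense windows with little xChIP H1.2 thus existed in each of these GC bands.

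At 56% GC or more, the gene-dense window chr11:64000001-64100000, with the growth factor gene VEGFB, the apoptosis gene BAD and the nuclear receptor gene ESRRA among 12 TSS, had 83.9, 44.9, 0 and 1.06%. A gene-poor window inside TAFA5, chr22:48900001-49000000, had 15.6, 12.1, 9.39 and 23.5%. The window of highest GC (63.5%), chr1:2400001-2500000 with HES5, a target of Notch, and TNFRSF14, had 40.5, 5.36, 0 and 0%. The highest mean xxChIP coverage was found in a window of chromosome 8 without a protein-coding gene (19.6, 7.08, 35.3 and 60.4%). The next highest was at chr12:34500001-34600000, with no protein-coding gene and 0 copies of the Alu word. There both protocols were high, at 68.9, 41.1, 39.5 and 39.6%. The window chr15:75500001-75600000, with GOLGA6C and GOLGA6D, had 35.6, 30.6, 43.9 and 25.5%, but only 42.5% of its sampled words were unique. The window chr20:56100001-56200000, with CTCFL, the testis relative of CTCF, PCK1, a gluconeogenic enzyme, and ZBP1, a sensor of Z-form nucleic acid, had 17.8, 2.38, 10.9 and 61.2%. In it the H1.5 coverage of xxChIP was far above that of H1.2, and both xChIP values were low.

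Gene lists drawn up for this work were looked up in the windows. Of 36 myeloid genes, 12 had their TSS in a GC-rich window, and those windows had a median xChIP H1.2 coverage of 68.6% (18.9 to 90.2%), against 56.1% over the 1130 GC-rich windows with a TSS. The combination of high xChIP H1.2 and low xxChIP was met by 8 of the 12, and by 548 of the 1130. At SPI1, the master regulator of myeloid cells, xChIP H1.2 covered 100% of the promoter and both xxChIP lists covered 0%, and the same held for CEBPB, TYROBP and JAK3. CEBPA, CORO1A and LILRB3 had 0% at their promoters in all 4 lists, and the LILRB3 window had 27.0% in xxChIP H1.2 peaks. For 26 broadly expressed genes the window median was 65.5% (15.7 to 100%), with 17 windows meeting the combination. ACTB and TUBB had promoters covered to 100% by xChIP H1.2, whereas EEF2, ALDOA and PFN1 had 0% in the 4 lists.

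Genes of other lineages were looked up in the same way. For 14 developmental transcription factor genes in 13 windows the median was 30.6% (11.7 to 70.1%), with 4 windows meeting the combination, and for 19 genes of tissues outside the blood in 17 windows it was 47.3% (27.99 to 76.1%), with 5 windows. Of all GC-rich windows with a TSS, 548 of 1130 met the combination. HOXA9 and HOXA13 share a window with 25.1% xChIP H1.2 and 4.06 to 6.98% in xxChIP, and HOXB1, TBX1 and FOXF1 lay in windows with 14.8, 17.9 and 11.7% xChIP H1.2. Others lay well above the median, with 70.1% at LHX3, 69.6% at PAX7 and 63.0% at TLX2. Of the tissue genes, APOE, which encodes a lipoprotein component, and CKM, the muscle creatine kinase, had 75.9 and 76.1%. At the promoters of PAX7, TLX2, DLX4, RYR1, GRIN2C and FGF21 xChIP H1.2 covered 100% and both xxChIP lists 0%. The promoters of EN2, EMX1, NEUROD2 and COL1A1 had 0% in the 4 lists. The xxChIP H1.2 medians of the 4 lists were 4.82, 3.20, 5.39 and 7.59%, against 4.94% for all GC-rich windows with a TSS, and the xxChIP H1.5 medians were 4.83, 2.53, 5.80 and 7.15% against 4.42%. These lists are small, and nothing is particular to them from these values.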

How the data were processed

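The deposited files hold peak positions only: chromosome, start and end in hg19, with no score and no read number, so depth is unknown. Per the labels and the study's methods, the authors aligned reads with Bowtie2 (up to 2 mismatches, uniquely mappable reads), called peaks with MUSIC at default parameters in each replicate, and then merged the peaks of the 3 replicates of each protocol and antibody. Coverage was computed here from the merged peaks of 4 lists in windows of 100 kb of the GRCh37 sequence, with protein-coding genes of GENCODE 44 lifted to GRCh37 (Python 3.11.15, numpy 2.4.6, scipy 1.17.1, matplotlib 3.10.9). The steps for coverage, CpG islands, differences at equal GC and counts of 32-base words were tested on simulated data. The windows, gene lists and named items were chosen with earlier results of these data known. The windows named are those with the largest and smallest xChIP minus xxChIP coverage by gene class and GC band, the highest GC, the most TSS and the highest xxChIP coverage; genes come from fixed lists, and examples from them were picked after their values were seen. The reference carried no repeat annotation, so repeats were counted by words: 32-base words sampled every 500 bp, and the commonest 14-base word, both chosen after seeing the data. The Alu identity of that word is background knowledge. Wilson intervals cover counting error only, and neighbouring windows are not independent.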

Additional observations from a re-analysis of the deposited data

Results flagged for a closer look

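At equal GC the gene-dense minus gene-poor difference in coverage had opposite signs in the lists of the 2 protocols. It was 20.0 points for xChIP H1.2 and 3.50 points for xChIP H1.5, and -4.88 points for xxChIP H1.2 and -6.78 points for xxChIP H1.5. The xChIP signs were not the same in every setting. With windows also matched for copies of the Alu word, xChIP H1.2 gave -0.19 points. With only peaks under 20 kb it gave -5.13 points. That setting took more from gene-dense windows, where longer peaks held 66.0% of xChIP H1.2 coverage, than from gene-poor windows (40.6%). The value of -5.13 points alone therefore cannot show whether the difference was stable. For xChIP H1.5 the values were -3.03 and -3.86 points with matches for the Alu word and for words of many copies. Each protocol is represented by 1 merged list per antibody, and the difference between the protocols was not tested.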

How the results depend on the processing

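No paired analysis was possible because each list is a merge of its 3 replicates, and for the same reason no replicate could be left out. Of 119 alternatives, 99 left the value within its interval and direction, 16 moved it and 4 turned its sign. The intervals of means and differences were formed as if windows were independent counts, which they are not. That of the xChIP H1.5 difference ran from -2.57 to 10.7 points. A value inside such an interval is therefore no measure of stability. With only peaks of 2 kb or more, means were 50.5% (H1.2) and 14.2% (H1.5) in xChIP, and 4.38% (H1.2) and 5.00% (H1.5) in xxChIP. With only peaks under 20 kb, xChIP H1.2 covered 24.5% and xChIP H1.5 14.9%, the xChIP H1.2 gene-dense minus gene-poor difference turned to -5.13 points, and the share of windows with high xChIP H1.2 and low xxChIP was 2.68%. In windows of 50 kb that difference was 7.79 points and that share 35.4%. The TSS limits were the same there, so the classes of that difference had another gene density. The share was 35.8% from 48% GC, 62.9% with limits of 40% and 20%, and 37.5% without chromosome 19. The next 3 kinds of setting, and matching within chromosomes, were added after seeing the data. In windows with 80% or more unique words, xChIP coverage was 48.1% (H1.2) and 15.6% (H1.5), and the share 31.7%. With strata of many-copy words the xChIP difference was 4.27 points (H1.2) and -3.86 points (H1.5), and with strata of copies of the Alu word -0.19 and -3.03 points. The cause was not tested. The xxChIP differences stayed negative in every alternative run. Leaving out each chromosome in turn gave means of 52.02 to 54.2% (H1.2) and 16.6 to 18.4% (H1.5) in xChIP, and 6.97 to 7.58% (H1.2) and 7.54 to 8.21% (H1.5) in xxChIP. In the same order the differences were 18.8 to 23.8, 2.57 to 5.97, -5.40 to -4.72 and -7.28 to -6.51 points, and the share was 37.5 to 41.8%.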

Other observations

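In windows under 50% GC the Alu word was also inside xChIP H1.2 peaks more often than the sequence around it, with 55.5% of copies against 25.0% of bases. With H1.5 in xChIP these shares were 23.7 and 16.5%. In xxChIP they were 24.7 and 21.4% (H1.2), and 20.4 and 18.1% (H1.5). The 325 GC-rich windows near chromosome ends had means of 54.97% (H1.2) and 17.7% (H1.5) in xChIP, and 6.22% (H1.2) and 7.12% (H1.5) in xxChIP, and 156 of them combined high xChIP H1.2 with low xxChIP. They held 30.9 copies of the Alu word per window.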
